A study of Mus musculus with 16 samples.

Results

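Long non-coding RNAs (lncRNAs) are transcripts that do not encode protein. Many are made from the strand opposite a protein coding gene or from inside its introns, and others stand alone between genes. Some act on chromatin, splicing or other RNAs in the nucleus, for most no function is known, and in brain they are often restricted to particular neurons and present at few copies. The 10 lncRNA genes described here are Gm26859, Gm16364, 1700109K24Rik, Gm45441, 1700065J18Rik, C130026L21Rik, Gm37571, Gm32391, Gm9017 and Gm14372. Gm45441 (ENSMUSG00000110020) stands in the deposited table under an older clone-based name, and its GENCODE name is used here. The genes were selected on their FPKM in the same mice, from the set that the study carried forward to PCR and from earlier results of these data, because their levels differed between mice that did and did not show learned helplessness. They account for 15 transcripts, of 4365 lncRNA transcripts and 80137 transcripts in all. Since the comparisons among LH, NLH and Ctrl chose these genes, their differences in those comparisons are a description without a test.

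RNA was sequenced from the hippocampus of 16 male C57BL/6 wild type mice at 3 months of age, in 4 groups of 4, and each library holds the 2 hippocampi of a single mouse. Learned helplessness (LH) and non-learned helplessness (NLH) mice had both received 180 inescapable foot shocks of 0.4 mA and, 24 h later, 30 trials in which a shock of 0.4 mA could be escaped. LH mice failed to escape more often and more slowly than NLH mice, and the division came from clustering of these behaviours, not from a different treatment. Ctrl mice had the 30 escape trials without the inescapable shocks, and homecage (HC) mice stayed in their cages with no shock, test or handling. Differences from HC therefore take in handling and the shuttle box as well as shocks. A list of 7 markers of hippocampal neurons had a summed level of 86.1 to 142 FPKM per mouse. Both ends of that range were LH mice, and HC mice had 90.2 to 100 FPKM. The marker Wfs1 was as low as 0.00225 FPKM in an LH mouse. FPKM is the number of sequenced fragments relative to the length of a transcript and the size of its library, so levels of different genes can be compared.

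The libraries were not equally informative at low levels. The depth estimated from the smallest steps between FPKM values was 32350000 to 35050000 fragments in HC, 29750000 to 39400000 in Ctrl, 27950000 to 38750000 in NLH and 20900000 to 29000000 in LH. LH 3 and LH 4 stood apart, with 10846 and 15504 transcripts listed at 0 against 4872 to 7352 in the other 14 mice. LH 4 had the lowest estimated depth of the 16 mice, at 20900000 fragments, while LH 3 had 25600000 and LH 2, with 6852 transcripts at 0, had 24800000. The part of depth in the values of 0 was not tested. Among 977 lncRNA transcripts with a mean between 0.2 and 0.6 FPKM in the 12 HC, Ctrl and NLH mice, 20.9% were at 0 in LH 3 and 35.0% in LH 4, against 3.58% to 8.50% in the others. Of the 15 transcripts described here, 6 were at 0 in LH 3 and 7 in LH 4. LH against HC differences of single transcripts and of coding neighbours that moved by over 1.5 times without LH 3 and LH 4 are also given without them.

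**Figure D1:**
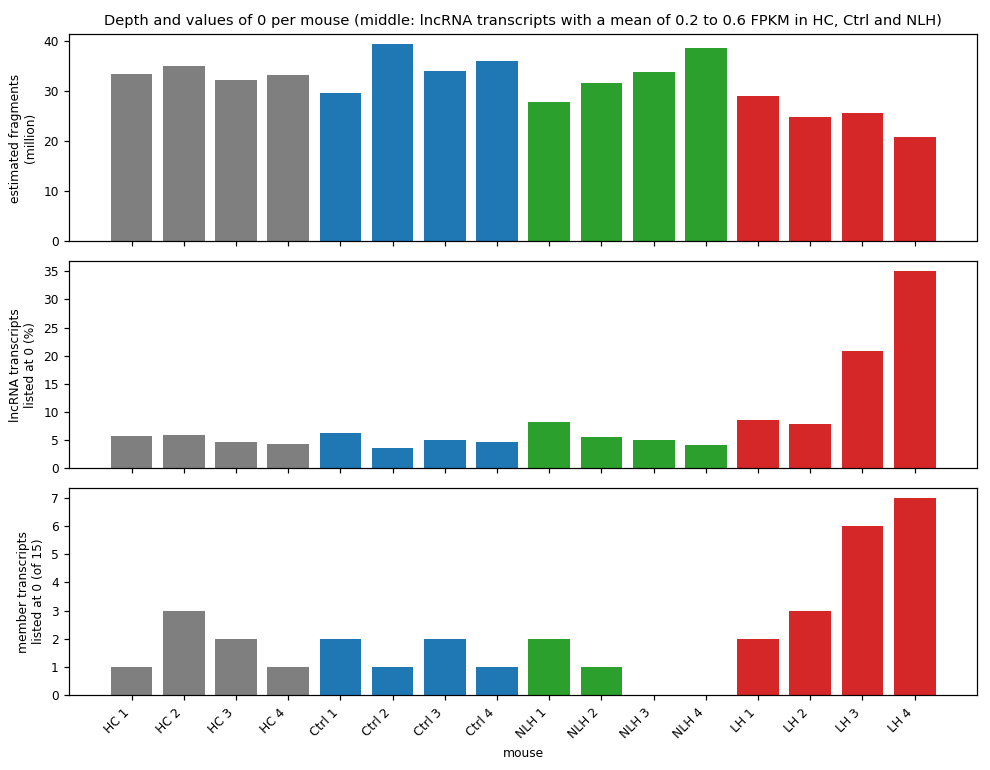
Bars give, for each of the 16 mice, the estimated fragments (top), the percent of 977 low lncRNA transcripts listed at 0 (middle) and the number of the 15 described transcripts listed at 0 (bottom). LH 3 and LH 4 have the tallest bars in the middle and bottom panels, at 20.9% and 35.0% and at 6 and 7 transcripts.

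The 10 genes were present at low levels. Over the 16 mice, Malat1, a nuclear speckle RNA, averaged 1751 FPKM, the imprinted Meg3 122 FPKM, the neuronal RNA Miat (Gomafu) 20.6 FPKM and the paraspeckle scaffold Neat1 7.74 FPKM. The lowest mean among the well known lncRNAs followed was that of Dlx6os1, at 3.05 FPKM with a range of 2.16 to 5.58 FPKM, which the range of 1700109K24Rik overlapped. No transcript of the 10 genes exceeded 2.93 FPKM in any mouse. The median lncRNA transcript in the file had a mean of 0.113 FPKM, and 7.12% had a mean of at least 1 FPKM. Of the 15 transcripts, 12 had a mean above that median, and 3 (Gm26859, 1700109K24Rik and Gm14372) were above the 90th percentile of lncRNA transcripts.

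Their loci fall into 2 kinds in the mouse genome (GRCm38, the same as mm10, with GENCODE vM21). Gm26859 lies at chr19:10389130-10391735 on the minus strand, wholly within Syt7, a calcium sensor of synaptic vesicle release transcribed from the plus strand. Gm16364 lies at chr10:39556071-39558062 on the minus strand within the tyrosine kinase gene Fyn, 1700109K24Rik at chr15:77084443-77096314 on the plus strand within the splicing regulator gene Rbfox2, and Gm14372 at chr7:144368048-144406933 on the minus strand within Shank2, a scaffold gene of the postsynaptic density. None of these 3 shares an exonic base with its host gene, whereas Gm26859 shares 384 of its 1852 bases (20.7%) with exons of Syt7. Gm45441 lies at chr7:45830895-45835249 on the plus strand and overlaps on one side Grwd1, a ribosome assembly gene whose start is 49 bases away, and on the other the NMDA receptor subunit gene Grin2d. Its longer transcript shares 421 bases (34.1%) with Grin2d exons and 50 bases (4.05%) with Grwd1. Gm9017 lies at chr16:60604766-60611236 and overlaps the start of the ephrin receptor gene Epha6 over 107 exonic bases. Gm37571 lies at chr1:155818494-155859591 and overlaps the centrosomal gene Cep350 without a shared exonic base. The others do not overlap a coding gene. Gm32391 lies at chr1:164462442-164463989, 4086 bp from Atp1b1, the sodium pump beta subunit gene. 1700065J18Rik lies at chr1:192841671-192842740, 1747 bp from Sertad4, and C130026L21Rik at chr5:111581422-111604932, 124388 bp from the transcriptional coregulator gene Mn1. Whether the libraries kept strand was not given in the sources used here, so reads from shared exonic bases cannot be assigned to either strand with certainty.

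The following transcript sequences identify what was counted where identity matters most. The 2 named Gm45441 transcripts differ, besides their outer ends, in where exon 1 ends and join the same exon 2, shown by the last 30 bases of exon 1 in lower case and the first 30 of exon 2 in capitals.
ENSMUST00000209301.1: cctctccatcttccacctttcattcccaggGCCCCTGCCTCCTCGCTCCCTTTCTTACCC
ENSMUST00000209250.1: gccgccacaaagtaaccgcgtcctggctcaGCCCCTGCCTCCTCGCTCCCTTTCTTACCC
The first transcript's exon 1 ends at 45831100, the second's at 45830950, and exon 2 of both starts at 45834221. For Gm26859, the sequence below crosses the edge of the stretch shared with Syt7 (chr19:10389454-10389573, minus strand), with the bases shared with Syt7 exons in capitals.
Gm26859: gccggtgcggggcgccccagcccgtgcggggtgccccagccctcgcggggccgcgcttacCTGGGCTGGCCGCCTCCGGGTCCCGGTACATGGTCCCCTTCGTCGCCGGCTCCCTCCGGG
Of the 4 C130026L21Rik transcripts, ENSMUST00000196725.1 holds 363 bases of its 756 that none of the other 3 has, and the capitals mark where that stretch begins (chr5:111582481-111582540, plus strand).
ENSMUST00000196725.1: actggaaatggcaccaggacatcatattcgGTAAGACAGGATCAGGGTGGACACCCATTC
1700065J18Rik is only 348 bases long, and its first 300 bases are shown with the 59 bases of exon 1 in capitals.
1700065J18Rik: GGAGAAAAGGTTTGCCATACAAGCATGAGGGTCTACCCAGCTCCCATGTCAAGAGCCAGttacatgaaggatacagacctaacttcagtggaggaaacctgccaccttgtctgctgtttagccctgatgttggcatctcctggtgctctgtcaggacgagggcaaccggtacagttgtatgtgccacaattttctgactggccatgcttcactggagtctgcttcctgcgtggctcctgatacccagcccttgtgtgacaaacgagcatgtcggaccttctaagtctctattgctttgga

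**Figure D2:**
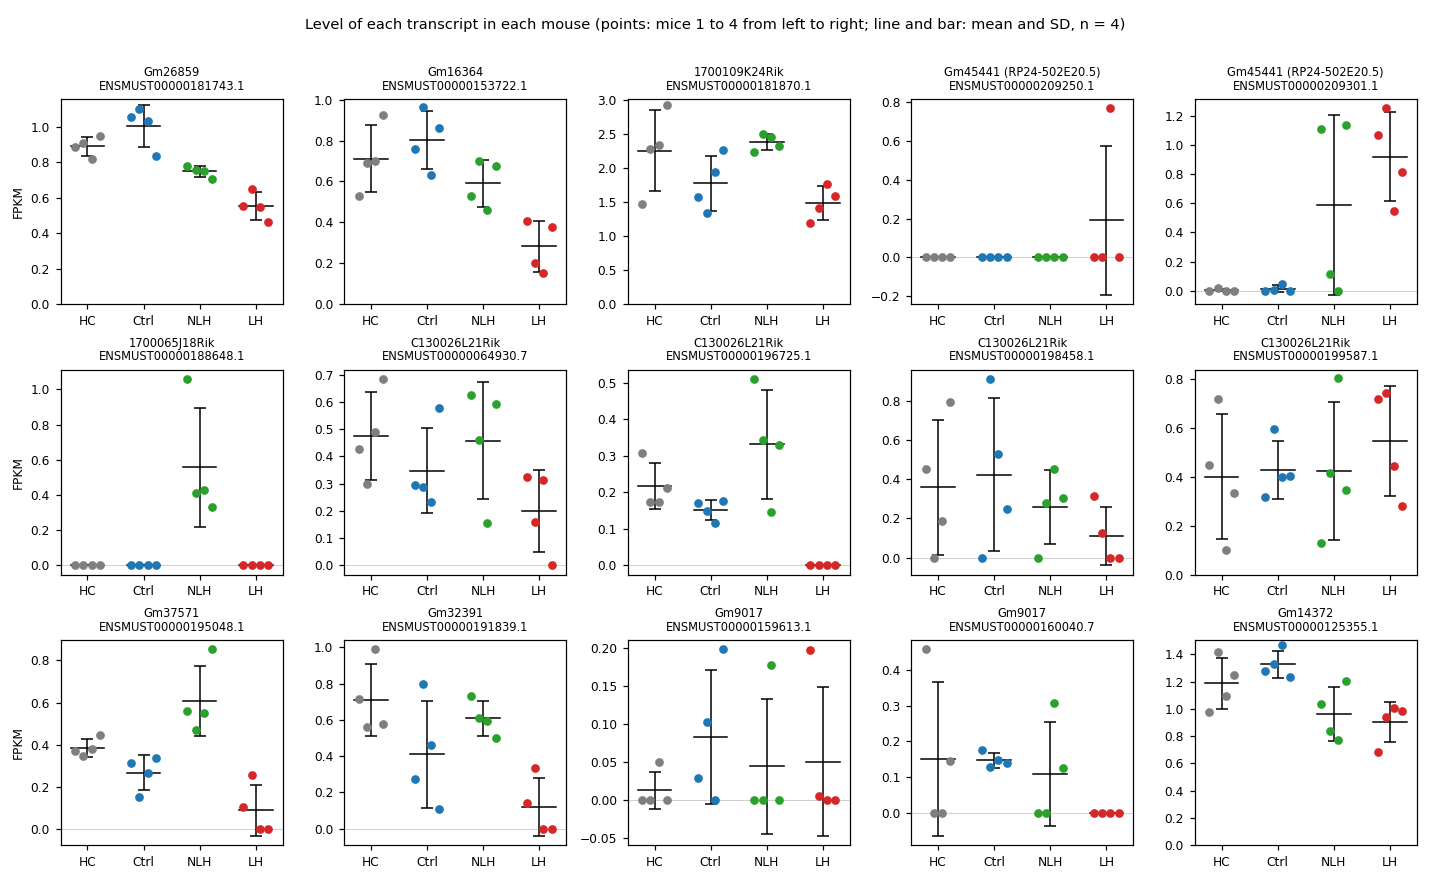
Each panel gives the FPKM of 1 transcript in the 16 mice (points, mice 1 to 4 from left to right in each group), with the mean and SD of 4 mice. All LH points of Gm26859 lie below all other points, the named Gm45441 transcript ENSMUST00000209301.1 is high in LH and in NLH 1 and NLH 4, and 1700065J18Rik is above 0 in NLH alone.

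Gm26859, inside Syt7, fell from HC and Ctrl through NLH to LH. Its level was 0.886, 0.908, 0.817 and 0.951 FPKM in the HC mice and 1.06, 1.10, 1.03 and 0.835 FPKM in the Ctrl mice. It was 0.782, 0.759, 0.754 and 0.707 FPKM in NLH and 0.551, 0.650, 0.551 and 0.461 FPKM in LH. Every LH mouse was below every NLH mouse, and every NLH mouse was below every HC and Ctrl mouse, while HC and Ctrl overlapped. In whole hippocampus, fewer cells of a type and less RNA per cell cannot be told apart. These values rested on an estimated 15 to 25 fragments in LH and 34 to 68.1 fragments in the other mice. Across all transcripts, 0.399% had 4 LH mice below all 12 others. On the log2(FPKM + 0.1) scale used for all log2 differences here, LH was lower than Ctrl by a described 0.76 and NLH lower than Ctrl by a described 0.38. Against HC, the LH difference was -0.61 (SE 0.16), which had a limma adjusted p of 0.151 over all transcripts, and the NLH difference of -0.22 had an adjusted p of 0.945. Without LH 3 and LH 4 the LH difference from HC was -0.50.

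Syt7 itself, summed over its transcripts, was 9.29 ± 1.47 FPKM (SD, n = 4) in LH, 9.06 ± 0.854 in NLH, 8.91 ± 0.651 in Ctrl and 7.78 ± 0.140 in HC. The coding gene thus had its lowest mean in HC and its highest in LH, where Gm26859 had its lowest. The LH against HC difference in Syt7 was 0.24 (SE 0.11) on the log2 scale with a limma adjusted p of 0.385, and it was 0.15 without LH 1 and 0.39 without LH 3 and LH 4.

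Gm16364, inside Fyn, was lowest in LH. Its level was 0.404, 0.199, 0.153 and 0.376 FPKM in LH, resting on about 12, 5, 4 and 8 fragments. It was 0.528, 0.693, 0.699 and 0.926 FPKM in HC, 0.760, 0.964, 0.630 and 0.863 FPKM in Ctrl, and 0.527, 0.699, 0.461 and 0.676 FPKM in NLH. The 4 LH mice were below all others, and the HC, Ctrl and NLH mice were not separated as 3 groups, although every NLH value lay below the Ctrl mean of 0.804 FPKM. LH 2 and LH 3 were the lowest, and LH 4 was close to LH 1. The LH against HC difference was -1.12 (SE 0.27), with a limma adjusted p of 0.12, and was -1.04 without LH 3 and LH 4. Fyn summed over transcripts differed between LH and HC by -0.39 (SE 0.42), and without LH 3 and LH 4 by 0.36, so its direction was not stable.

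1700109K24Rik, inside Rbfox2, had the highest level of the 10 genes. It was 1.47, 2.29, 2.35 and 2.93 FPKM in HC, 1.57, 1.34, 1.94 and 2.26 FPKM in Ctrl, 2.24, 2.51, 2.46 and 2.33 FPKM in NLH and 1.19, 1.41, 1.77 and 1.59 FPKM in LH. NLH and LH did not overlap, whereas LH overlapped HC through HC 1 and overlapped Ctrl in most mice. The described LH against NLH difference was -0.66. The LH against HC difference was -0.54 (SE 0.20, limma adjusted p = 0.303). Rbfox2 differed by 0.17 (SE 0.13) in the same comparison, by 0.0727 without LH 2 and by 0.43 without LH 3 and LH 4.

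Gm14372, inside Shank2, separated Ctrl from LH. Its level was 1.28, 1.33, 1.46 and 1.24 FPKM in Ctrl and 0.687, 0.938, 1.01 and 0.983 FPKM in LH. NLH mice had 1.04, 0.837, 0.773 and 1.202 FPKM and HC mice 0.979, 1.42, 1.10 and 1.25 FPKM. Both groups given inescapable shocks lay below every Ctrl mouse, with described log2 differences of -0.52 for LH and -0.44 for NLH, and both overlapped HC. It was the best counted member, with 37.9 to 48.9 estimated fragments per LH mouse. The LH against HC difference was -0.36 (SE 0.18, limma adjusted p = 0.451), and that for Shank2 was -0.12 (SE 0.20), which was 0.16 without LH 3 and LH 4.

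Gm45441, at Grwd1 and Grin2d, was the gene with its highest mean in LH. ENSMUST00000209301.1 was 1.07, 1.25, 0.550 and 0.813 FPKM in LH, or about 29.3, 29.1, 13.3 and 16 fragments. In NLH it was 1.11, 0.116, 6.76e-05 and 1.14 FPKM. No HC mouse exceeded 0.0172 FPKM and no Ctrl mouse 0.0495 FPKM. The transcript was thus high in every LH mouse and in NLH 1 and NLH 4, and at or near 0 in NLH 3 and in HC and Ctrl. The LH against HC difference of 3.24 (SE 0.65) had a limma adjusted p of 0.0739 and passed without LH 3 and LH 4, at 3.59, and the NLH against HC difference of 2.02 had one of 0.641. The shorter ENSMUST00000209250.1 was 0.770 FPKM in LH 3 and at most 5.66e-05 FPKM in the other 15 mice. Summed over both named transcripts, the LH against HC difference was 3.52 and passed the limma test over 18287 gene names, of which 0.17% were called.

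The file holds another transcript of this locus that was assembled by the authors and has no Ensembl identifier. Its level was 1.23, 1.25, 0.905 and 0.859 FPKM in HC and 1.76, 1.38, 1.14 and 1.10 FPKM in Ctrl. In NLH it was 0.203, 2.10, 1.67 and 0.289 FPKM, low in NLH 1 and NLH 4, where the named transcript was high. In LH it was 1.34 and 0.689 FPKM in mice 1 and 2 and below 0.001 FPKM in LH 3 and LH 4. The sum of the 3 transcripts was 0.859 to 1.26 FPKM in HC, 1.10 to 1.76 in Ctrl, 1.31 to 2.21 in NLH and 0.813 to 2.41 in LH. The LH range of this total contained the ranges of HC, Ctrl and NLH, while every NLH mouse was above every HC mouse. The named share of the locus was 44.3% to 100% in LH, 84.6% and 79.7% in NLH 1 and NLH 4, 5.24% in NLH 2 and at most 4.16% in Ctrl and 1.37% in HC. Why the FPKM was assigned to different transcripts of the locus was not tested. Of the coding neighbours, Grin2d differed between LH and HC by 0.10 (SE 0.26) and Grwd1 by -0.37 (SE 0.19, limma adjusted p = 0.414). Without LH 3 and LH 4 these differences were 0.33 for Grin2d and -5.98e-05 for Grwd1. With a single mouse left out, Grin2d ranged from -0.0363 without LH 1 to 0.32 without LH 3, and Grwd1 from -0.56 without LH 2 to -0.22 without LH 4.

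**Figure D3:**
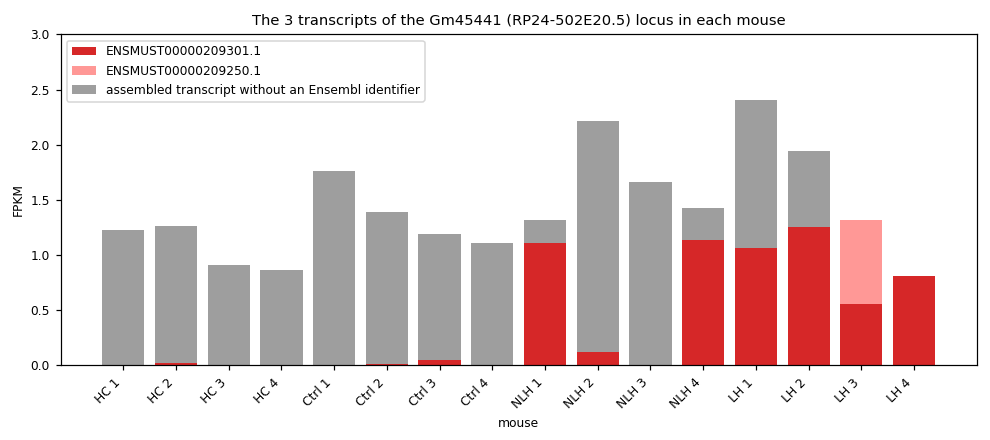
Stacked bars give the FPKM of the 3 transcripts of the Gm45441 locus in each mouse. The grey assembled transcript makes up all but at most 4.16% of the bar in every HC and Ctrl mouse. The red ENSMUST00000209301.1 makes up most of it in NLH 1, NLH 4, LH 2 and LH 4. The total heights in LH span those of the other groups, and every NLH bar is taller than every HC bar.

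1700065J18Rik, near Sertad4, was listed above 0 in NLH alone. It was 1.06, 0.409, 0.429 and 0.330 FPKM in the 4 NLH mice and listed at 0 in all 12 others. A single fragment of this short transcript was worth 0.333 to 0.543 FPKM in NLH and 0.495 to 0.726 FPKM in LH, so the NLH values amounted to about 2, 1, 1 and 1 fragments. The estimated fragments of the 4 mice together were 132300000 in NLH, 134150000 in HC, 139250000 in Ctrl and 100300000 in LH, and the part of depth in these values was not tested. The NLH against HC difference of 2.60 (SE 0.29) had a limma adjusted p of 0.00638, with 0.0237% of transcripts called in that comparison. The SE comes from groups of which all but NLH have no spread at all, and the NLH mice were used to choose the gene. With all HC mice at 0, the size of the difference depends on the constant added, and it was 5.67 with 0.01 FPKM and 0.62 with 1 FPKM, which did not pass. In the whole file, 3 transcripts were above 0 in all 4 mice of a single group and at 0 in the other 12, and all 3 were NLH transcripts. Its neighbour Sertad4 was 2.37 ± 0.419 FPKM in NLH and 2.45 ± 0.121 FPKM in HC, and Hhat, the hedgehog acyltransferase gene on its other side, was 0.235 ± 0.106 and 0.429 ± 0.178 FPKM.

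C130026L21Rik had 4 transcripts, and a single isoform set LH apart. ENSMUST00000196725.1 was 0.306, 0.174, 0.174 and 0.212 FPKM in HC, 0.170, 0.148, 0.116 and 0.176 FPKM in Ctrl, and 0.510, 0.342, 0.146 and 0.328 FPKM in NLH. It was 1.75e-09 FPKM in LH 1 and listed at 0 in LH 2, LH 3 and LH 4. Behind the values above 0 stood an estimated 1.9 to 6.6 fragments per mouse. No fragment was therefore assigned to the transcript in any LH mouse, LH 1 and LH 2 included. How fragments from the bases that it shares with the other isoforms were assigned among them was not tested. For ENSMUST00000196725.1 the difference between LH and HC was -1.64 (SE 0.31, limma adjusted p = 0.0579) with all LH mice and -1.64 without LH 3 and LH 4, where it passed. ENSMUST00000064930.7 averaged 0.475 ± 0.161 FPKM in HC and 0.199 ± 0.152 in LH, with overlap, a difference of -1.11 (SE 0.48, limma adjusted p = 0.382) that was -0.65 without LH 4 and -0.75 without LH 3 and LH 4. ENSMUST00000199587.1 went the other way, at 0.401 ± 0.256 FPKM in HC and 0.547 ± 0.225 in LH, also with overlap. ENSMUST00000198458.1 was 0.454, 0, 0.188 and 0.794 FPKM in HC and 0.316, 0.126, 0 and 0 FPKM in LH. Its HC mean of 0.359 FPKM was 0.214 without HC 4, and its LH mean of 0.110 FPKM was 0.0420 without LH 1. Summed over all 4, the gene had 0.279 to 1.36 FPKM in LH and 0.954 to 2.03 FPKM in HC, so the separation seen for ENSMUST00000196725.1 was not present at the level of the gene. Mn1, the nearest coding gene in the file, was 2.53 ± 0.688 FPKM in LH and 2.55 ± 0.221 in HC.

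Gm37571, which overlaps Cep350, was ordered from NLH through HC and Ctrl to LH. It was 0.561, 0.472, 0.550 and 0.851 FPKM in NLH, 0.369, 0.347, 0.382 and 0.448 FPKM in HC, 0.316, 0.154, 0.268 and 0.336 FPKM in Ctrl, and 0.107 and 0.256 FPKM in LH 1 and LH 2. It was listed at 0 in LH 3 and LH 4. NLH did not overlap HC, and HC did not overlap Ctrl, whereas LH 2 lay within the Ctrl range. These steps are 5 to 11 fragments in NLH, 4 to 5 in HC, 2 to 4 in Ctrl and 0 to 2 in LH. None of the HC comparisons passed the limma test. The differences from HC were 0.52 for NLH (adjusted p = 0.945), -0.43 for Ctrl (adjusted p = 1) and -1.56 for LH (SE 0.39, adjusted p = 0.13), and the last was -0.84 without LH 3 and LH 4. The Ctrl difference was -0.26 without Ctrl 2. Cep350 was 7.25 ± 0.284 FPKM in NLH, 5.76 ± 0.854 in HC, 5.53 ± 0.304 in Ctrl and 6.58 ± 2.53 in LH. It too was higher in NLH than in HC, by 0.34 with a limma adjusted p of 0.867.

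Gm32391, near Atp1b1, was low in LH and variable in Ctrl. It was 0.715, 0.560, 0.988 and 0.575 FPKM in HC, 0.729, 0.607, 0.595 and 0.497 FPKM in NLH, and 0.273, 0.795, 0.462 and 0.108 FPKM in Ctrl. It was 0.139 and 0.334 FPKM in LH 1 and LH 2, or 1 and 2 fragments, and listed at 0 in LH 3 and LH 4. LH lay below all HC and NLH mice but overlapped Ctrl. The LH against HC difference was -2.14 (SE 0.50, limma adjusted p = 0.108) and -1.30 without LH 3 and LH 4. Atp1b1 was 262 ± 35.4 FPKM in LH and 228 ± 7.67 FPKM in HC, a difference of 0.19 (limma adjusted p = 0.457) that was 0.12 without LH 1 and 0.34 without LH 3 and LH 4.

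Gm9017, at the start of Epha6, rested on very few fragments. ENSMUST00000160040.7 was 0.176, 0.127, 0.147 and 0.138 FPKM in Ctrl, which is 1 fragment in each mouse, and listed at 0 in all LH mice, in 2 HC mice and in 2 NLH mice. LH and Ctrl thus did not overlap, by a single fragment in each Ctrl mouse. ENSMUST00000159613.1 reached at most 0.198 FPKM in any mouse. The assembled transcripts of the same locus without an Ensembl identifier carried 2.24 to 5.87 FPKM per mouse, and the named share was at most 13.7%. For ENSMUST00000160040.7 the LH against HC difference was -0.95 (SE 0.54, limma adjusted p = 0.529), and it was -0.43 without HC 1. Epha6 was 12.0 ± 3.86 FPKM in LH and 16.4 ± 1.36 in HC, a difference of -0.49 (SE 0.17, limma adjusted p = 0.214) that was -0.30 without LH 3 and LH 4. With all mice it was the smallest adjusted p of any coding neighbour named here in the LH against HC comparison.

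**Figure D4:**
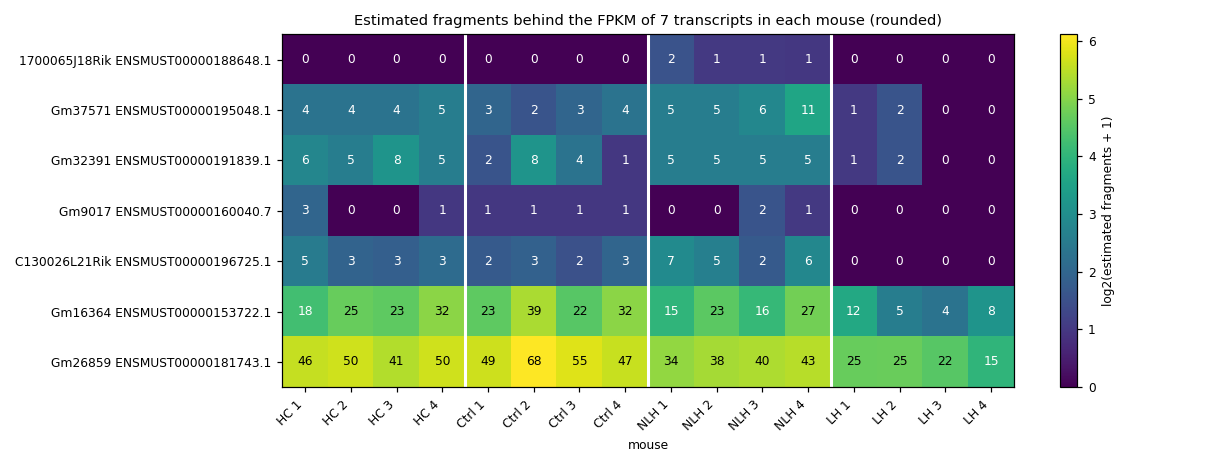
Colours and numbers give the estimated fragments, rounded, behind 7 transcripts in each mouse (columns, groups divided by white lines). The values of 1700065J18Rik and of the Gm9017 transcript shown rest on 0 to 3 fragments in any mouse, those of Gm26859 on 15 or more.

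Homecage mice offered the comparison with animals that had no shock, handling or shuttle box. It is not independent of the choice of genes, since the LH, NLH and Ctrl mice are the same and the study set aside transcripts that differed between Ctrl and HC. Between Ctrl and HC, 0 of the 15 transcripts passed the limma test, where 0.00374% of all transcripts did, and 0 had an unadjusted p under 0.05, where 3.45% of all did. Gm37571, lower in Ctrl, was the 1 transcript that did not overlap between these groups, beside 1.94% of all transcripts that were lower and 2.53% that were higher without overlap. Between NLH and HC, 1700065J18Rik alone passed, where 0.0237% of all transcripts did, Gm26859 was lower without overlap, and 1700065J18Rik and Gm37571 were higher without overlap, beside 1.97% and 3.36% of all transcripts in these directions, and 2 had an unadjusted p under 0.05, where 5.59% did. In 1700065J18Rik and Gm37571 the 4 NLH mice were above all 12 others, as in 0.119% of all transcripts. Between LH and HC, 0 of 15 passed at an adjusted p under 0.05, where 0.14% of all transcripts did, and 8 had an unadjusted p under 0.05, where 11.9% did. Leaving out LH 2 brought 3 past the test, namely ENSMUST00000196725.1, Gm37571 (-1.93) and Gm32391 (-2.57), where 0.59% of all transcripts were called without that mouse. In that comparison 5 transcripts were lower without overlap (Gm26859, Gm16364, ENSMUST00000196725.1 of C130026L21Rik, Gm37571 and Gm32391) beside 3.42% of all transcripts, and 1, ENSMUST00000209301.1, was higher beside 2.75%. The median log2 difference of the 15 was -0.61, that of all transcripts -0.05 and that of all lncRNA transcripts -0.15.

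With LH 1 and LH 2 alone, 7 of the 15 lay below all HC mice, where 9.42% of all transcripts did, and 2 above, where 16.4% did. The 7 were the same 5 with 1700109K24Rik and Gm14372 added. LH 1 and LH 2 lay below all Ctrl mice in 5 of the 15 (9.48% of all transcripts) and above them in 2 (15.5%). They lay below all NLH mice in 7 (7.07%) and above them in 0 (9.79%). The LH, NLH and Ctrl mice chose the genes, so nothing is read from the Ctrl and NLH counts.

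In the comparisons that chose the genes, nothing is read from the counts. Between LH and Ctrl, 0 transcripts passed the limma test (0.0462% of all), 5 were lower without overlap (3.52% of all) and 1 higher (2.34% of all). Between LH and NLH, 2 passed (0.0412% of all), 1700065J18Rik and ENSMUST00000196725.1, while 7 were lower without overlap (2.25% of all) and 0 higher (0.933% of all). Between NLH and Ctrl, 1 passed (0.0125% of all), and 2 were lower (2.14% of all) and 2 higher without overlap (2.88% of all).

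**Figure D5:**
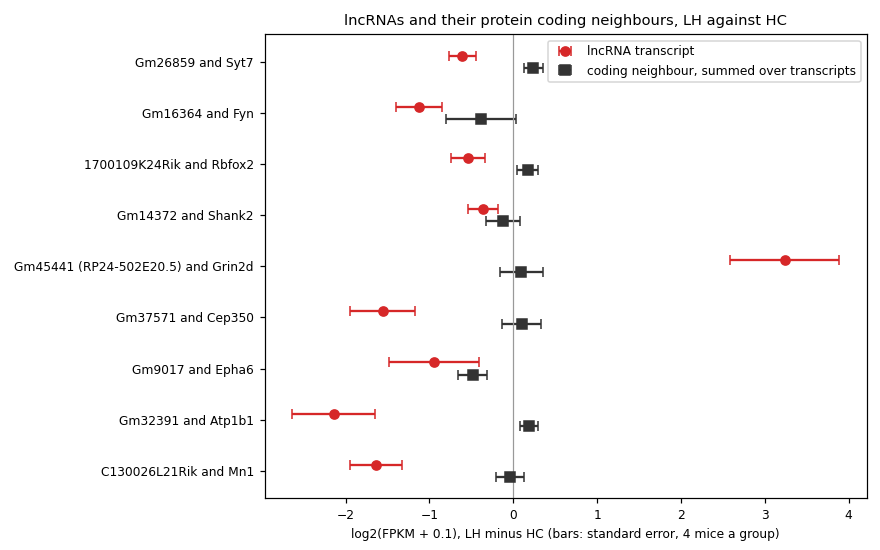
Points give the LH minus HC difference in log2(FPKM + 0.1) with its standard error for 9 lncRNA transcripts (red circles) and a coding neighbour of each (black squares). The lncRNA differences run from -2.14 for Gm32391 to 3.24 for Gm45441, and those of the neighbours from -0.49 for Epha6 to 0.24 for Syt7.

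The coding neighbours were not used to choose the lncRNAs. With all mice and FPKM as deposited, 0 of 12 passed the limma test in any of the 6 comparisons between groups, in which 0% (Ctrl against HC), 0.0219% (NLH against HC), 0.17% (LH against HC), 0.00547% (NLH against Ctrl), 0% (LH against Ctrl) and 0.0109% (LH against NLH) of all gene names did, and 3 had an unadjusted p under 0.05 in at least 1 of them, as did 25.3% of all 18287 gene names. Without LH 3 and LH 4, Syt7 (0.39), Rbfox2 (0.43), Cep350 (0.51) and Atp1b1 (0.34) were called higher in LH than in HC. In that fit 10.7% of all gene names were called between LH and HC and 10.2% were called higher in LH.

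Sequence before the start sites was available from RefSeq (GRCm38.p6) for 5 of the 10 genes, as 250 bases before to 50 after the start. Both strands were searched for the E-box CACGTG, present in 7.15% of 32851 such windows, and for the GC box GGGCGG, present in 35.7%. The search also took in TATAAA of the TATA box (13.6% of windows), CCAAT (37.4%) and the CREB half-site TGACG (20.8%). C130026L21Rik held GGGCGG at 2 places and CCAAT at 1, Gm14372 held TGACG at 2 places, and 1700109K24Rik held it at 1. The RefSeq start of Gm16364 lies 55620 bases from that in GENCODE and its window held GGGCGG at 1 place and TGACG at 2. The RefSeq start of Gm32391 lies 3919 bases upstream of the GENCODE start and 168 bases from the start of Atp1b1 on the other strand, in a window of 70.3% GC against a median of 52.7%, with GGGCGG and CCAAT at 2 places each. Gm26859, Gm45441, 1700065J18Rik, Gm37571 and Gm9017 were not matched. The window of C130026L21Rik is shown as that of the gene with an isoform to which no fragment was assigned in LH, with the motifs in capitals (chr5:111581311-111581610, plus strand).
C130026L21Rik: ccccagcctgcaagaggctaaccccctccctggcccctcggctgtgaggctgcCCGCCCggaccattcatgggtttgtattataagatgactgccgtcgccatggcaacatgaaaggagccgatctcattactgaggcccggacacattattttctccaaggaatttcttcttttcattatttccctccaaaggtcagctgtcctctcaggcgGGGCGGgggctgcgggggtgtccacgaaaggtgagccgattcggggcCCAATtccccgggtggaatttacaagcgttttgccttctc

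Among about 10436 gene names with a mean of at least 1 FPKM, the gene whose level followed each lncRNA most closely over the 16 mice was found, as a description. Gm26859 was closest to the chromatin remodelling gene Bptf (r = 0.874), Gm16364 to the CREB coactivator gene Crtc2 (r = 0.83) and Gm45441 to the neuronal RNA-binding protein gene Elavl4 (r = 0.888). C130026L21Rik followed the ubiquitin gene Ubb (r = 0.928), Gm37571 Gm3764 (r = 0.878), Gm32391 B130055M24Rik (r = 0.876), 1700065J18Rik Nudt9 (r = 0.779), Gm14372 4933423P22Rik (r = 0.761), Gm9017 Gm15513 (r = 0.756) and 1700109K24Rik Rabep2 (r = 0.675). Elavl4 averaged 10.9 FPKM in LH and 5.95 FPKM in HC, while Bptf averaged 3.47 and 4.33 FPKM and Crtc2 2.84 and 4.97 FPKM. Each r is the largest of about 10436 over 16 mice and is high through that choice. What unrelated genes would reach was not tested, and the group means of Elavl4, Bptf and Crtc2 follow from the same choice. All points share libraries and depth.

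Other cell types in the tissue were followed through fixed marker lists, summed per mouse. The lists for choroid plexus, ependymal cilia, striatum, thalamus and habenula, oligodendrocytes, microglia, red blood cells and endothelium overlapped between all groups, and LH had the widest range of the 4 groups in each of them. The LH range was 1.77 to 96.1 FPKM in choroid plexus against 3.09 to 39.6 FPKM in HC, 8.09 to 26.2 against 9.99 to 13.2 FPKM in thalamus and habenula, and 265 to 515 against 388 to 430 FPKM in oligodendrocytes. The 6 immediate early genes, which neurons switch on with activity, summed to 12.1 to 15.9 FPKM in HC, 17.7 to 25.3 in Ctrl, 15.6 to 21.6 in NLH and 17.3 to 25.2 in LH. The sum in HC was thus below Ctrl and LH, and it overlapped NLH. Among the 6 genes, Arc alone separated HC (5.40 to 7.96 FPKM) from both Ctrl (9.28 to 13.9 FPKM) and LH (9.04 to 12.3 FPKM). Egr1, Fos and Fosb in LH overlapped HC. Npas4 overlapped between all groups, at 0.463 to 0.837 FPKM in HC and 0.459 to 0.565 FPKM in Ctrl. Junb was 0 in every HC, NLH and LH mouse. The part of these lists in the lncRNA differences was not tested.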

How the data were processed

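Total RNA libraries from 16 mice (4 per group, by the sample labels) were sequenced by the authors, who deposited 1 table of FPKM per transcript and mouse. Their methods name HISAT2 as the aligner, and their processing notes name STAR 2.42a, StringTie 1.2.3 for assembly and Cufflinks for FPKM, on mm10. FPKM carry no counts. Depth was estimated from the smallest steps of low FPKM in 4307 loci with a single transcript. It was the depth at which these steps came closest to whole fragments. With it, 85.2% to 88.2% of values came within 0.1 of a whole fragment. Of values unrelated to the depth 20% would, a share that does not allow for this fitting. All fragment numbers are thus estimates that cover counting only.

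All rows of the 10 genes were used. The members and lists were chosen with earlier results of these data known. Differences were fitted with limma 3.58.1 (R 4.3.3) on log2(FPKM + 0.1), with trend and robust moderation, 4 group means over 16 mice and Benjamini-Hochberg adjustment over all 80137 transcripts, two-sided, called at an adjusted p under 0.05. Adding 0.1 understates the change of low transcripts. Coding neighbours and gene sums were fitted alike over 18287 gene names. The neighbours named are the coding genes that overlap a member or, with none, flank it. The gene most like each member is that of largest Pearson r. The study's own test, on FPKM without adjustment, other added constants, a filter, size factors, a replicate block and left-out mice were tried as alternatives. Mice with the same number did not deviate together (median r -0.00835 over 24 pairs, 0 of them over 0.1). The fit was also run on simulated data as a check of the code, which says nothing of the differences reported here. Nothing in the sources used here gives the strand setting of the libraries.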

Additional observations from a re-analysis of the deposited data

Results flagged for a closer look

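In 100 groups of 4 mice, 10 held a mouse farther from the other 3 than the range of the group allows under Dixon's criterion, where chance gives about 1 in 20, and 3 of the 10 were LH mice. For Gm45441, the transcript ENSMUST00000209250.1 was 0.770 FPKM in LH 3 and at most 1.78e-17 FPKM in the other LH mice. ENSMUST00000209301.1 of the same gene was 0.0172 FPKM in HC 2 against at most 0.00105 FPKM in the other HC mice, and 0.0495 FPKM in Ctrl 3 against at most 0.00643 FPKM in the other Ctrl mice, all of which are below what 3 fragments give. 1700065J18Rik was 1.06 FPKM in NLH 1 and 0.330 to 0.429 FPKM in the other NLH mice, the step from 1 to 2 fragments. ENSMUST00000159613.1 of Gm9017 stood apart in HC 3 at 0.0496 FPKM, in NLH 3 at 0.178 FPKM and in LH 1 at 0.197 FPKM, with values at or near 0 in the other mice of each group.

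Among the coding neighbours, Hhat was 0.655 FPKM in LH 4 and 0.192 to 0.249 FPKM in the other LH mice. Epha6 was 18.4 FPKM in HC 2 and 15.6 to 15.9 FPKM in the other HC mice, and Syt7 was 7.99 FPKM in HC 4 and 7.70 to 7.73 FPKM in the others.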

How the results depend on the processing

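Of 1196 alternative values of the 52 log2 differences followed, 1147 kept direction and side of the threshold, 16 no longer passed, 25 newly passed and 8 reversed, and 295 of 300 alternative group means moved by less than 1 SD. The 5 others are Gm26859 (HC, Ctrl and NLH), 1700109K24Rik (NLH) and Gm14372 (Ctrl) under size factors. Only coding neighbours reversed, all in LH against HC. Without LH 3 and LH 4, Shank2 was 0.16 and Fyn 0.36. With a single mouse left out, Cep350 was -0.0855 to 0.43 (lowest without LH 2), Grin2d -0.0363 to 0.32 (below 0 without LH 1, and -0.03 without HC 3), Shank2 -0.25 to 0.0802 (above 0 without LH 3, and 0.02 without HC 4) and Fyn -0.68 to 0.19 (above 0 without LH 4).

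Counts of calls were far more sensitive, and their causes were not tested. Between Ctrl and HC, 3 transcripts were called, against 1 with 1 FPKM added, 0 with a mean of at least 0.1 FPKM, 0 with the replicate block, 5292 by the study's unadjusted test, 0 for gene sums, 0 without LH 3 and LH 4, and 0 to 13 with a single mouse left out. Between NLH and HC, 19 became 6 with 1 added, 33 with size factors, 0 with the block, 6082, 4, 125 without LH 3 and LH 4, and 9 to 41. Between LH and HC, 112 became 27 with 1 added, 178 with the mean filter, 433 with size factors, 8 with the block, 6495 by the study's test, 70 without trend and robust moderation, 31 for gene sums, 1760 without LH 3 and LH 4, and 21 (without HC 1) to 558 (without LH 4). Between NLH and Ctrl, 10 became 0 with the block, 5707, 1, 33 and 8 to 47. Between LH and Ctrl, 37 became 65 with 0.01 added, 14 with 1 added, 56, 133, 5 with the block, 6083, 0, 331 and 12 to 310. Between LH and NLH, 33 became 58 with 0.01 added, 11 with 1 added, 3537 by the study's test, 58 without trend and robust moderation, 2 for gene sums, 76 without LH 3 and LH 4, and 16 to 242.

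The 15 transcripts were in part chosen on the study's test, so its calls are given beside the calls among all 80137 transcripts, in brackets. It called 1 between Ctrl and HC (5292), 3 between NLH and HC (6082) and 7 between LH and HC (6495, or 8.1%). It called 5 between NLH and Ctrl (5707), 6 between LH and Ctrl (6083) and 7 between LH and NLH (3537). Between LH and HC, limma called 1 (ENSMUST00000196725.1) with 0.01 added (0.173% of all transcripts), with the mean filter (0.3%) or without trend and robust moderation (0.0874%). It called 2 (with ENSMUST00000209301.1) with size factors (0.54%) or without LH 3 and LH 4 (2.2%). For gene sums it called 1 (0.17% of gene names), and with a mouse left out 0 to 3 (0.0262% to 0.696% of all transcripts). Between NLH and HC, as between NLH and Ctrl, 1 became 0 with 1 added and 0 with the block, and stayed at 1 with any mouse left out. Among all transcripts, 6 (NLH against HC) and 9 (NLH against Ctrl) were called with 1 added, and 0 in both with the block. Between LH and Ctrl, 0 became 1 with 0.01 added (65 of all transcripts) and 0 to 1 with a mouse left out. Between LH and NLH, 2 of the 15 were called, beside 33 of all transcripts. These became 0 with 1 added (11 of all), 1 with size factors (27 of all) and 1 with the block (28 of all). There was 1 for gene sums (2 of all gene names), 1 without LH 3 and LH 4 (76 of all transcripts), and 1 to 3 with a mouse left out. For Ctrl against HC it stayed at 0 with any mouse left out. Of the neighbours, 2 were called in at least 1 comparison with size factors (Atp1b1 and Syt7), where 5.3% of all gene names were, 4 by the study's test (28.8% of all), 4 without LH 3 and LH 4 (11.8% of all), and 0 to 1 with a mouse left out (Epha6 without LH 2, where 0.454% of all were). The replicate numbers do not pair the mice (correlations of -0.0575 to 0.0874 over 24 pairs), so the block results say nothing of weaker effects. Size factors moved the median of all transcripts by at most 0.0771. The values of 1700065J18Rik and of ENSMUST00000160040.7 of Gm9017 rest on 0 to 3 estimated fragments a mouse.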
